A study of Mus musculus with 2 samples.

Results

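The genes described here encode the desmosome of the corneal epithelium. They are 5 desmosomal cadherins (Dsg1a, Dsg2, Dsg3, Dsc2 and Dsc3), 4 plaque proteins (Dsp, Jup, Pkp1 and Pkp3) and the membrane protein Perp. They were taken by symbol from the deposited gene tables, in which all 10 were found among 32285 genes, and all 10 were among the 14677 genes measured with at least 20 unique molecular identifiers (UMIs) in epithelial-like cells. Single-cell RNA libraries were made from the cornea and limbus, the rim around the cornea, of 1 wild-type mouse with a sodium hydroxide (NaOH) injury and of 1 uninjured wild-type mouse labelled as control. The age, sex and strain of the mice and the time from injury to harvest are not given in the labels. Most of the conjunctiva was dissected away, and the tissue was dissociated with liberase followed by trypsin. Each group is 1 library, so no test was possible, and every interval below is a 95% interval for counting error only that holds no variation between mice.

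Desmosomes are spot-like junctions that tie the keratin filaments of neighbouring epithelial cells together. Desmogleins (Dsg) and desmocollins (Dsc) span the membrane and bind across the gap between cells, plakoglobin (Jup) and plakophilins (Pkp) hold their tails, and desmoplakin (Dsp) links this plaque to keratin. In mouse skin Dsg3 and Dsc3 are mainly found in the lower layers, and desmoglein 1 and Pkp1 in the upper ones. The corneal epithelium is stratified too and renews itself from basal cells of the limbus. A chemical burn strips it, and the defect is covered by cells that migrate in from the periphery.

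The plaque genes and Perp lie on 5 chromosomes (GRCm38, GENCODE M21): Dsp at chr13:38151294-38198577 (plus strand), Jup at chr11:100368958-100397763 (minus strand), Pkp1 at chr1:135871395-135919207 (minus strand), Pkp3 at chr7:141078218-141090510 (plus strand) and Perp at chr10:18845020-18857073 (plus strand). With the cadherin genes not looked up, Dsp and Jup were the only ones with an entry in the RefSeq promoter table (GRCm38.p6). Their 250 bases before the gene start are shown because both plaque genes were lower in the NaOH library, and capitals mark matches of the Krüppel-like factor (KLF) motif CCNCNCCC on either strand:
Dsp, chr13:38151044-38151293, plus strand: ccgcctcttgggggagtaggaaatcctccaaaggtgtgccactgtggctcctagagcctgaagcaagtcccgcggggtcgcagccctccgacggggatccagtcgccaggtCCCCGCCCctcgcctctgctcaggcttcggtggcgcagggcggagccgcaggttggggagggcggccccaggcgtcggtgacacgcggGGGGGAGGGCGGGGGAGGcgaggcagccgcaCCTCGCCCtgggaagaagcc
Jup, chr11:100397791-100398040, minus strand: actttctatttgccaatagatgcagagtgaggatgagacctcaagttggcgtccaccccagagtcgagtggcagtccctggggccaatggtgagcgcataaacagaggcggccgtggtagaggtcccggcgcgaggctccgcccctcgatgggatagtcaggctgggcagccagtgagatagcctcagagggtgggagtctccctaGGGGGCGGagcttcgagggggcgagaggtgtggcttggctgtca

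The Dsp window held 5 KLF matches, starting 139, 51, 45, 41 and 20 bases before the gene start, of which those at 51, 45 and 41 overlap each other. The Jup window held 1, at 44 bases before the start. KLF matches were present in 45.9% of 32851 promoter windows of the same length, and GC content was 72.4% for Dsp and 62.0% for Jup, against a median of 52.4%. Neither window held the grainyhead-like (GRHL) motif AACCGGTT, the AP-1 motif TGANTCA or the Snail and ZEB E-box CAGGTG on either strand, which were present in 0.116%, 6.75% and 17.2% of the windows. These are matches of letters and not sites of binding.

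The NaOH library held 8346 analysed cells with 96375562 UMIs (median 10599 per cell), and the uninjured library 6775 cells with 77816659 UMIs (median 10162 per cell). Of these, 5705 NaOH cells (68.4%) and 5230 uninjured cells (77.2%) were epithelial-like by their markers (Krt5, Krt14, Krt12, Krt15, Epcam, Cdh1, Aldh3a1 and Pax6), with none of those 8 markers at 0 in either library. Median depth in this class was 11711 UMIs per cell in NaOH and 11242.5 in uninjured epithelium, and the median mitochondrial share was 3.63% in NaOH and 2.16% in uninjured cells. The libraries shared 13 cell barcodes, 0.156% of the NaOH cells and 0.192% of the uninjured cells. Levels below are summed UMIs of a gene scaled to a total of 1000000 UMIs in the same cells (CPM). They were not scaled by gene length, so each gene is compared with itself across libraries and states, not with other genes.

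In the epithelium as a whole, the desmogleins differed in direction between the libraries. Dsg1a, one of the mouse copies of desmoglein 1, had 444 UMIs or 5.54 CPM (interval 5.03 to 6.08) in NaOH cells, against 9124 UMIs or 124 CPM (122 to 127) in uninjured cells. That is a 22.5-fold lower level in NaOH epithelium (interval of the ratio 20.4 to 24.8, log2 ratio -4.49). Dsg3, the desmoglein of lower layers in skin, was at 213 CPM in NaOH and 247 CPM in uninjured cells (log2 ratio -0.21). Dsg2, the desmoglein of simple epithelia and heart, was the only one of the 10 with a higher level in NaOH cells, 36.1 CPM against 23.0 CPM in uninjured cells (ratio 1.57, interval 1.47 to 1.66). As a share of the UMIs of these 3 desmogleins, Dsg1a made up 2.18% in NaOH and 31.6% in uninjured epithelium, and Dsg2 14.2% in NaOH and 5.84% in uninjured epithelium.

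The 5 cadherin genes lie in 1 cluster on chromosome 18 (GRCm38, GENCODE M21), with Dsc1, Dsg1c, Dsg1b and Dsg4 between them. From low to high coordinate they are Dsc3 (chr18:19960930-20002351, minus strand), Dsc2 (chr18:20030633-20059554, minus strand), Dsg1a (chr18:20310811-20343350, plus strand), Dsg3 (chr18:20510274-20547459, plus strand) and Dsg2 (chr18:20558074-20604521, plus strand). They are protein-coding, like the plaque genes and Perp.

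Of the desmocollins, Dsc3 was at 117 CPM (115 to 120) in NaOH and 282 CPM (278 to 286) in uninjured cells, 2.40-fold lower in NaOH cells (interval 2.35 to 2.46, log2 ratio -1.27). Dsc2, which is more widely expressed, was at 178 CPM in NaOH and 196 CPM in uninjured cells (log2 ratio -0.14). Dsc3 made up 39.7% of the UMIs of this pair in NaOH and 59.1% in uninjured epithelium.

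All 4 plaque genes and Perp were lower in the NaOH library by less than 2-fold. Dsp was at 555 CPM in NaOH and 961 CPM in uninjured cells (log2 ratio -0.79). Jup, whose protein also serves adherens junctions, was at 218 CPM in NaOH and 317 CPM in uninjured cells (-0.54). Pkp3 was at 105 CPM in NaOH and 161 CPM in uninjured cells (-0.61), and Pkp1 was closer, at 129 CPM in NaOH and 143 CPM in uninjured cells (-0.14). Perp, a p63 target needed for stable desmosomes in mouse stratified epithelia, was at 1069 CPM in NaOH and 1743 CPM in uninjured cells (-0.71).

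A gene was counted as lower or higher in NaOH cells when its level differed at least 2-fold and the interval of the ratio excluded 1. By this rule 2 of the 10 were lower (Dsg1a and Dsc3), where 11.3% of all genes measured were, and 0 were higher, where 14.1% of all genes were. The ratio was below 1 for 9 of the 10 and for 48.4% of all genes. The median log2 ratio was -0.58 over the 10 and 0.03 over all genes.

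**Figure D1:**
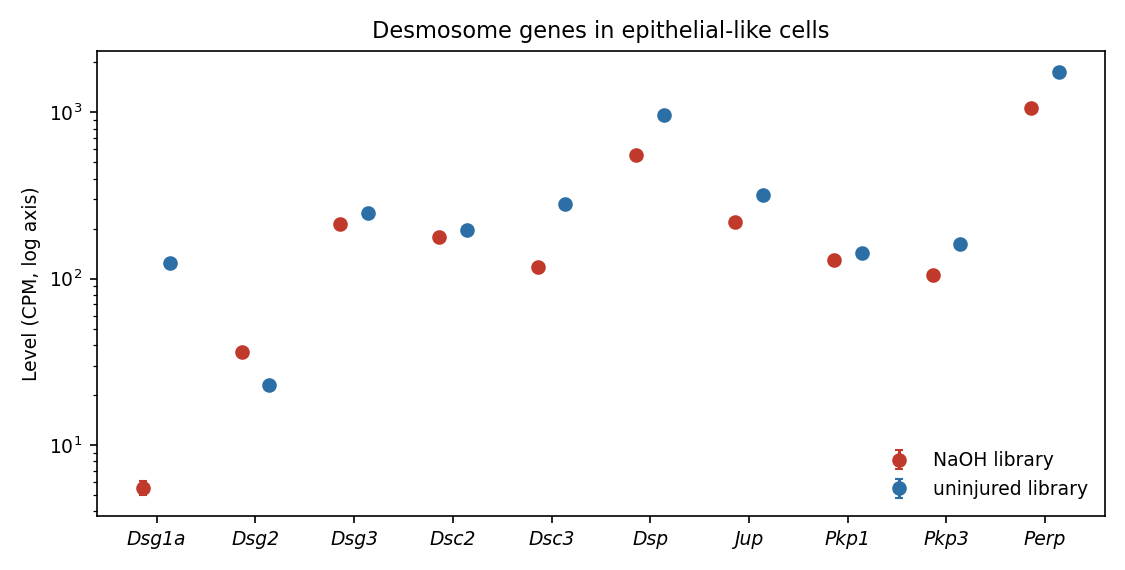
Level of each desmosome gene (CPM, log axis) in the summed epithelial-like cells of the NaOH library (red, left of each pair) and the uninjured library (blue, right), with 95% counting intervals that are mostly smaller than the points. Dsg1a is 22.5-fold lower and Dsc3 2.40-fold lower in NaOH cells, and Dsg2 alone is higher.

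Markers of several other cell types differed between the libraries inside the epithelial-like class. The summed level of the 7 stromal markers was 198 CPM in NaOH and 67.2 CPM in uninjured cells, and that of the 6 neutrophil markers was 102 CPM in NaOH and 26.7 CPM in uninjured cells, where Csf3r and Retnlg were at 0. The 6 mural markers summed to 116 CPM in NaOH and 42.8 CPM in uninjured cells, and the 6 vascular endothelial markers to 42.6 CPM in NaOH and 2.06 CPM in uninjured cells. The 6 Schwann markers were close, at 52.3 CPM in NaOH and 53.9 CPM in uninjured cells, and the 4 melanocyte markers summed to 0.599 CPM in NaOH cells, where 2 were at 0, and 3.38 CPM in uninjured cells, where 1 was. The epithelial markers themselves summed to 18341 CPM in NaOH and 41208 CPM in uninjured cells. The part of these shifts and of the mitochondrial share in the ratios was not tested.

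Free RNA in the droplets sets a floor for low levels. Stromal-like cells, which lack desmosomes of this kind, had Dsg1a at 0.198 CPM (2 UMIs) in the NaOH library and 10.5 CPM (27 UMIs, 8.41% of the epithelial level) in the uninjured library. Neutrophil-like cells of the NaOH library had 2.12 CPM of Dsg1a (0.257 to 7.67) from 2 UMIs, the highest of 6 other classes in that library. In uninjured tissue Schwann-like cells had 40.4 CPM (11.0 to 103) and vascular endothelial-like cells 26.3 CPM (7.17 to 67.3), each from 4 UMIs. In uninjured stromal-like cells the keratin Krt12, made by corneal epithelium, was at 1041 CPM, 5.31% of its epithelial level. For the other 9 genes the stromal-like level was 4.40 to 8.45% of the epithelial level in the NaOH library and 3.37 to 14.2% in the uninjured library.

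Counted per cell, at least 1 Dsg1a UMI was found in 274 of 5705 NaOH cells (4.80%) and in 2732 of 5230 uninjured cells (52.2%). With each cell thinned to 2000 UMIs, the share was 0.548% in NaOH (0.373 to 0.777%) and 17.3% in uninjured epithelium (16.3 to 18.3%). The same share in stromal-like cells was 0 of 787 cells in NaOH, which allows up to 0.468%, and 2.34% in uninjured tissue. For Dsp the thinned share was 57.3% in NaOH and 74.8% in uninjured epithelium, and in stromal-like cells it was 3.81% in NaOH and 11.9% in uninjured tissue. For Dsc3 it was 21.6% in NaOH and 39.8% in uninjured epithelium. Thinning left out 50 NaOH cells and 96 uninjured cells as too shallow. A thinned cell had UMIs of a median of 3 of the 10 genes in NaOH and of 4 in uninjured epithelium, and 4.37% of NaOH cells and 0.896% of uninjured cells had none of them.

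The epithelial-like cells were grouped again with the desmosome genes left out of the clustering genes, so that their levels did not define the states. Of the 14 named states, 7 held at least 25 cells of the NaOH library. These were an Acta2/Inhba migrating-like state (823 cells), a Hist1h2ap/Top2a cycling-like state (744 cells), limbal-like states led by Gpha2/Sox4 (1327 cells), Ereg/Fst (1414 cells) and Serpinb3a/Krt17 (655 cells), and conjunctival-like states led by Tspan1/Asprv1 (69 cells) and Ppbp/Krt19 (656 cells). The uninjured library filled 8 states. These were the Ppbp/Krt19 conjunctival-like state (51 cells), an Apoe/Id1 limbal-like state (330 cells), a Cenpf/Mki67 cycling-like state (528 cells), a Psca/Lce3a differentiated-like state (546 cells), and corneal-like states led by Spink7/Gsta2 (966 cells), Socs3/Irf1 (994 cells), Nppb/Mmp13 (1556 cells) and Ppp1r3c/Gas1 (246 cells). Only the Ppbp/Krt19 conjunctival-like state, among the named ones, held at least 25 cells of each library, so for all other named states state and library cannot be told apart. The migrating-like state was led by Acta2, Cald1, Htra1, Igfbp7 and Tagln, of which Acta2 is a smooth-muscle gene and on the mural marker list, and the listed migrating marker Inhba came seventh. Its Acta2 level was 384 CPM, against 7788 CPM in mural-like cells of the NaOH library. The other 5 mural markers summed to 6.25 CPM there, against 6706 CPM in those mural-like cells, and none of the 8 epithelial markers was at 0.

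**Figure D2:**
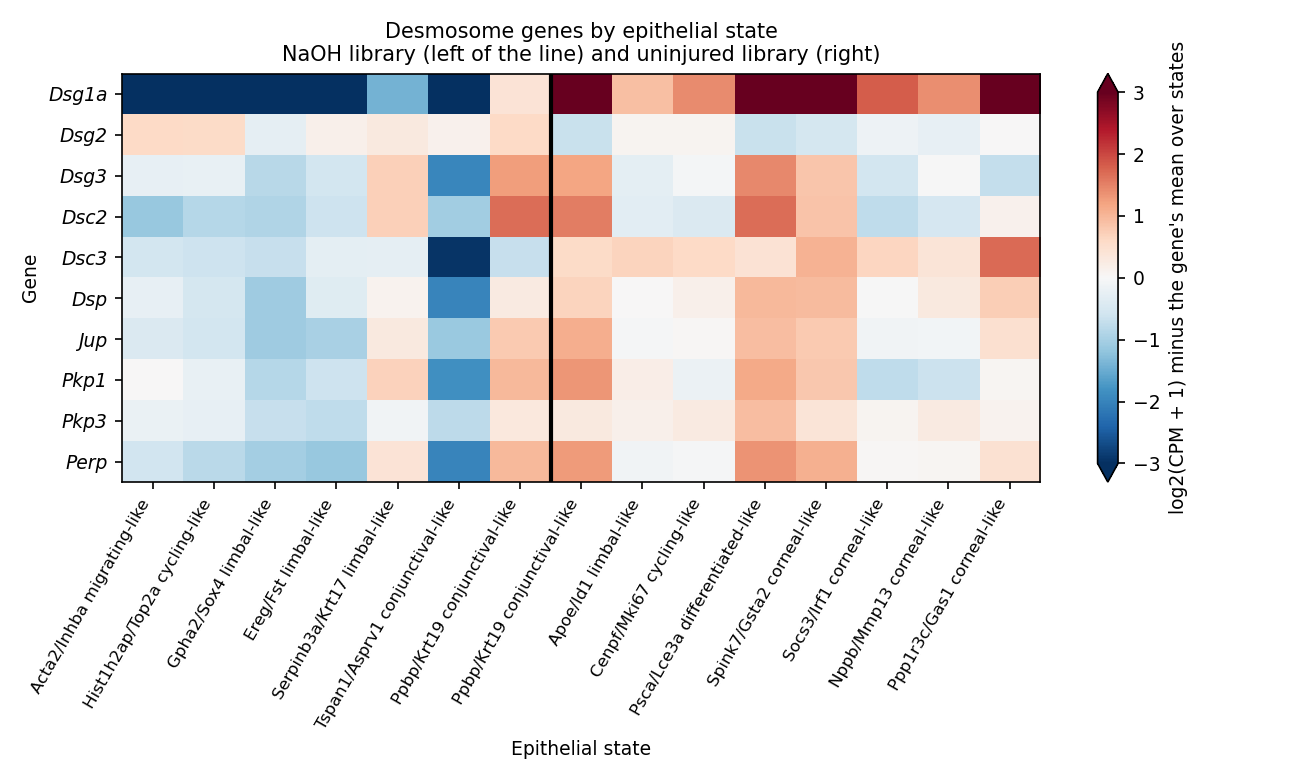
Each desmosome gene (rows) in each epithelial state (columns) as log2(CPM + 1) minus the gene's own mean over the 15 columns, with NaOH states left of the black line and uninjured states right of it; the colour scale ends at 3 in either direction. Dsg1a and Dsc3 are lower in every NaOH state than in every uninjured state, a pattern that was not counted over all genes. The Ppbp/Krt19 conjunctival-like column of the NaOH library is high for most other genes. Dsg2 is the only one of the 10 genes whose median over NaOH states (34.9 CPM) is above that over uninjured states (24.3 CPM).

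Dsg1a, like Dsc3 below, had no overlap between libraries over the states. How many of all genes had none was not counted. Dsg1a lay between 0 and 21.7 CPM (median 0.656) in the 7 NaOH states and between 30.8 and 290 CPM (median 105) in the 8 uninjured states. In the NaOH library, 371 of its 444 UMIs (83.6%) came from the conjunctival-like states, all of them in the Ppbp/Krt19 state, and it was at 5.39 CPM in the Serpinb3a/Krt17 limbal-like state. The migrating-like (0.804 CPM, 0.367 to 1.53) and cycling-like (0.656 CPM, 0.283 to 1.29) states lay between the 0.198 CPM (0.0240 to 0.715) of stromal-like and the 2.12 CPM of neutrophil-like cells of that library. The Gpha2/Sox4 (0.151 CPM) and Ereg/Fst (0.127 CPM) states lay below both, and none of these 4 levels could be told from free RNA. The Tspan1/Asprv1 conjunctival-like state had 0 UMIs of Dsg1a, with an upper limit of 4.38 CPM. In the uninjured library the highest levels were in the differentiated-like state (290 CPM) and the Spink7/Gsta2 corneal-like state (200 CPM). The Ppbp/Krt19 conjunctival-like (153 CPM) and Ppp1r3c/Gas1 corneal-like (152 CPM) states followed and did not differ beyond their intervals. The lowest uninjured state was the Apoe/Id1 limbal-like one, where the thinned share of cells with a UMI (4.94%, 2.85 to 7.90%) overlapped that of stromal-like cells (2.34%, 1.13 to 4.25%). Its level of 30.8 CPM (25.2 to 37.3) was above that of stromal-like cells (10.5 CPM, 6.90 to 15.2). That level lay within the wide intervals of uninjured Schwann-like and vascular endothelial-like cells, which rest on 4 UMIs each.

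Dsc3 also did not overlap. It lay between 21.4 and 141 CPM (median 110) in the NaOH states and between 222 and 554 CPM (median 262) in the uninjured states. Its levels were close to each other in 6 of the 7 NaOH states, between 104 CPM in the Ppbp/Krt19 conjunctival-like and 141 CPM in the Serpinb3a/Krt17 limbal-like state. Its highest level was in the Ppp1r3c/Gas1 corneal-like state.

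Dsp lay between 166 and 785 CPM (median 514) in the NaOH states and between 650 and 1292 CPM (median 921) in the uninjured states. Perp lay between 290 and 2251 CPM (median 651) in the NaOH states and between 1068 and 2923 CPM (median 1370) in the uninjured states. For both, the Ppbp/Krt19 conjunctival-like state was the highest NaOH state, the Tspan1/Asprv1 state the lowest NaOH state, and the ranges of the 2 libraries overlapped. The differentiated-like state had the highest Perp level of the states. For Dsp it (1292 CPM, 1270 to 1314) and the Spink7/Gsta2 corneal-like state (1269 CPM, 1252 to 1286) were highest, with overlapping intervals. Jup ran from 112 to 414 CPM (median 163) in NaOH states and from 223 to 514 CPM (median 291) in uninjured states. Pkp1 ran from 32.0 to 230 CPM (median 99.6) in NaOH states and from 68.5 to 293 CPM (median 128) in uninjured states.

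Pkp3 varied least of the plaque genes, from 71.2 to 153 CPM (median 105) in NaOH states and from 131 to 235 CPM (median 150) in uninjured states. Dsg3 and Dsc2 overlapped widely. Dsg3 ran from 45.1 to 427 CPM (median 150) in NaOH states and from 109 to 488 CPM (median 176) in uninjured states. Dsc2 ran from 63.8 to 459 CPM (median 78.6) in NaOH states and from 83.1 to 455 CPM (median 135) in uninjured states. Dsg2 varied 2.51-fold between its highest and lowest state, from 23.1 to 43.0 CPM (median 34.9) in NaOH states and from 17.1 to 29.96 CPM (median 24.3) in uninjured states, and the intervals of all 14 neighbouring pairs in its order of levels overlapped. Of the 69 NaOH cells in the Tspan1/Asprv1 state, 68 were deep enough to thin and 32.4% of these had no UMI of any of the 10 genes.

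In the Ppbp/Krt19 conjunctival-like state, the 1 named state with at least 25 cells of each library, 656 NaOH cells could be set against 51 uninjured cells. Dsg1a was at 21.7 CPM in NaOH and 153 CPM in uninjured cells (7.07-fold lower in NaOH, interval 5.91 to 8.43). Dsc3 was at 104 CPM in NaOH and 253 CPM in uninjured cells (2.42-fold lower in NaOH, 2.14 to 2.73). Dsg2 was at 43.0 CPM in NaOH and 17.4 CPM in uninjured cells, where it had 22 UMIs (ratio 2.47, 1.62 to 3.97). So 2 of the 10 genes were lower in NaOH cells, where 6.82% of all genes measured in this state were, and 1 was higher, where 4.95% were. The other 7 had ratios between 0.750 (Dsp) and 1.10 (Dsc2).

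Limbal-like and cycling-like cells of the libraries fell into separate states but carry the same name. Over the limbal-like cells, 3404 in NaOH and 340 in uninjured tissue, Dsg1a was at 1.45 CPM in NaOH and 31.8 CPM in uninjured cells (log2 ratio -4.46), and Dsc3 at 128 CPM in NaOH and 267 CPM in uninjured cells (-1.07). Here 2 of the 10 genes were at least 2-fold lower (10.0% of all genes), 0 were higher (4.58% of all genes) and the median log2 ratio was -0.44 (all genes -0.12). Over the cycling-like cells, 752 in NaOH and 531 in uninjured tissue, Dsg1a was at 0.650 CPM in NaOH and 44.2 CPM in uninjured cells (-6.09), and Dsc3 at 112 CPM in NaOH and 256 CPM in uninjured cells (-1.19). Again 2 of the 10 were lower (9.45% of all genes) and 0 higher (10.4% of all genes), with a median log2 ratio of -0.56 (all genes 0.02). In limbal-like cells Dsg2, Dsg3 and Dsc2 had log2 ratios of -0.02, 0.09 and 0.03. These sums pool unlike NaOH states. Dsg3 was at 295 CPM in the Serpinb3a/Krt17, 123 CPM in the Ereg/Fst and 100 CPM in the Gpha2/Sox4 state. The uninjured Apoe/Id1 state had 146 CPM. Dsc2 was at 233, 91.6 and 75.2 CPM in the same NaOH states, against 115 CPM in the Apoe/Id1 state. The Serpinb3a/Krt17 state held 52 of the 56 Dsg1a UMIs of NaOH limbal-like cells.

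All epithelial-like cells were ranked by a score, the log2 ratio of summed suprabasal over basal marker UMIs in each cell. They were cut into 4 bands of equal cell number over both libraries, band 1 the most basal and band 4 the most suprabasal by this score. The basal list was Krt14, Krt15, Col17a1, Itgb4, Itga6, Trp63, Igfbp2, Mt1 and Ccnd2. The suprabasal list was Ly6g6c, Clic3, Krt78, Cldn4, Cldn23, Tmprss11e, Dapl1, Lgals7, Ces1d and Sprr1a. Krt14 (8308 CPM in NaOH and 2762 CPM in uninjured cells) and Krt15 (5814 and 1792 CPM) were higher in NaOH epithelium, and Col17a1 and Trp63 were lower. The part of such shifts in the score was not tested. No desmosome gene enters the score. Band 1 held 39.0% of NaOH and 9.73% of uninjured epithelial cells, band 2 held 34.4% of NaOH and 14.7% of uninjured cells, band 3 held 23.3% of NaOH and 26.8% of uninjured cells, and band 4 held 3.26% of NaOH (186 cells) and 48.7% of uninjured cells (2548 cells). A band is a range and not a cell type, and 2328 of the 10935 cells lay within 0.1 of a limit.

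The gap between the libraries was wider in higher bands for most of the genes, and the scores within band 4 were not matched, with a median of -1.11 in NaOH and -0.44 in uninjured cells. From band 1 to band 4, the median log2 ratio of the 10 genes was -0.02, -0.57, -0.94 and -1.34, while that of all genes was -0.03, 0.05, 0.01 and -0.01. The number of the 10 at least 2-fold lower in NaOH cells was 2, 2, 3 and 8 over the same bands, and the share of all genes was 7.59%, 8.05%, 11.0% and 11.0%. The number at least 2-fold higher was 0 in every band, where the share of all genes was 7.15%, 11.2%, 11.9% and 9.84%. In band 4 Perp was at 598 CPM in NaOH and 2080 CPM in uninjured cells (log2 ratio -1.80, interval -1.89 to -1.71), and Dsp at 403 CPM in NaOH and 1100 CPM in uninjured cells (-1.45, -1.56 to -1.34). In band 1 Perp was at 1484 CPM in NaOH and 1448 CPM in uninjured cells (0.04), and Dsp at 668 CPM in NaOH and 781 CPM in uninjured cells (-0.22).

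Jup, Pkp1 and Pkp3 followed the same course. For Pkp3 the log2 ratio was -0.28 in band 1 and -0.98 in band 4. For Jup it was -0.08 in band 1 and -1.27 in band 4, and for Pkp1 0.14 in band 1 and -1.41 in band 4. Dsg3 and Dsc2 had higher levels in NaOH cells of band 1 (0.36 and 0.64) and lower levels in band 4 (-1.27 and -1.05). Dsc3 was low throughout, at -1.001, -1.09, -1.15 and -1.63, and Dsg1a at -2.67, -4.83, -6.66 and -5.99, the last from 5 UMIs in NaOH cells. Dsg2 was higher in NaOH cells in each band (0.45, 0.54, 0.28 and 0.93).

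**Figure D3:**
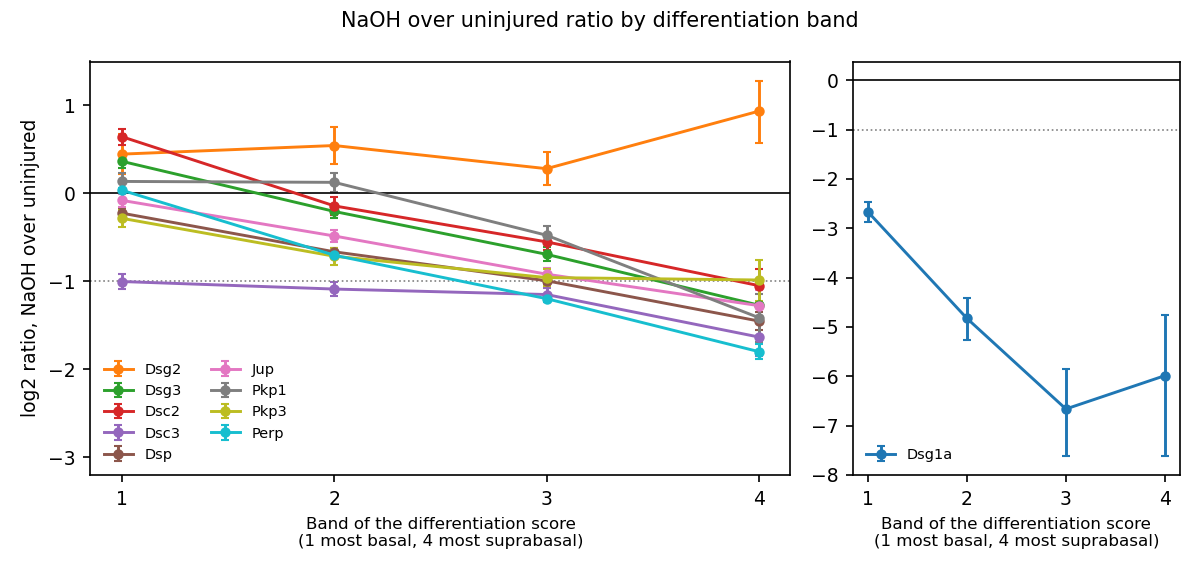
Log2 ratio of NaOH over uninjured level of each desmosome gene (coloured lines, Dsg1a on its own axis at right) in the 4 bands of the differentiation score, with 95% counting intervals; the solid line marks equal levels and the dotted line a level 2-fold lower in NaOH cells. In band 4, 8 of the 10 genes are past the dotted line, Pkp3 lies at -0.98 and Dsg2 at 0.93.

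Between the ends of the score, levels in the 2 libraries differed in opposite directions. In uninjured cells, 9 of the 10 genes had a higher level in band 4 than in band 1, with ratios of band 4 over band 1 from 1.08 for Pkp1 to 2.70 for Dsg1a. In NaOH cells these 9 had ratios of band 4 over band 1 between 0.270 (Dsg1a) and 0.845 (Dsc3). For Perp the ratio was 0.403 in NaOH and 1.44 in uninjured cells, and for Dsp 0.602 in NaOH and 1.41 in uninjured cells. Dsg2 had 1.05 in NaOH and 0.746 in uninjured cells. How many of all genes differed in opposite directions between the ends of the score was not counted. With all states kept, the uninjured levels of several genes did not climb steadily. From band 1 to band 4, Perp was at 1484, 780, 607 and 598 CPM in NaOH cells, and at 1448, 1269, 1391 and 2080 CPM in uninjured cells. In uninjured cells Dsg3, Dsc2, Jup, Pkp1 and Perp were lower in bands 2 and 3 than in band 1, so for these 5 the higher level was in band 4 alone. This depended on conjunctival-like cells, which were 9.04% of uninjured band 1. Without them, uninjured Perp was at 1163, 1263, 1389 and 2080 CPM from band 1 to band 4, and Dsc2 at 116, 119, 139 and 246 CPM. Dsg3 and Jup were then higher in band 3 than in band 1. Pkp1 stayed lower in bands 2 and 3 (94.3 and 107 CPM) than in band 1 (126 CPM).

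The makeup of the bands differed between libraries. In NaOH cells, 24.7% of band 1 was the Ppbp/Krt19 conjunctival-like state, and band 4 was led by Ereg/Fst (33.3%) and Gpha2/Sox4 (27.4%) limbal-like cells. With the conjunctival-like states left out, the number of genes at least 2-fold lower was 1, 2, 4 and 9 over the bands (7.57%, 9.29%, 12.0% and 12.6% of all genes), with medians of -0.25, -0.70, -0.99 and -1.42. The gradient in NaOH cells then lay between 0.469 (Pkp1) and 0.897 (Dsc3) for the same genes other than Dsg1a. Dsg1a had 0 UMIs in the 158 NaOH cells left in band 4, against 6706 UMIs in uninjured cells. With the 0 set to 3 UMIs over the group it was 88.3-fold lower, a bound on the observed ratio that leaves out counting error. The interval of that ratio starts at 71.8-fold.

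Bins of equal width along the score were compared as well. In bins 0.25 wide, from -4 to -0.75, the median log2 ratio of the 10 genes was 0.08 in the lowest bin (128 NaOH and 32 uninjured cells) and -1.13 in the highest (42 NaOH and 394 uninjured cells). It lay between -0.85 and -0.91 in the 4 bins between -2 and -1. Toward the basal side, Dsc2 was at least 2-fold higher in NaOH cells in the bins from -3.5 to -3.25 (log2 ratio 1.20) and from -3.25 to -3 (1.04). No other desmosome gene was at least 2-fold higher in any bin. The share of all genes higher in these bins was not counted. In the bin from -1.25 to -1, with 103 NaOH and 454 uninjured cells, 4 of the 10 genes were at least 2-fold lower in NaOH cells, where 10.1% of all genes were. These were Dsg1a, Dsc3, Dsp (log2 ratio -1.06) and Perp (-1.27), while Jup was at -0.99, Pkp3 at -0.83, Dsg3 at -0.76, Pkp1 at -0.69 and Dsc2 at -0.35. In the highest bin 7 were, where 7.13% of all genes were.

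**Figure D4:**
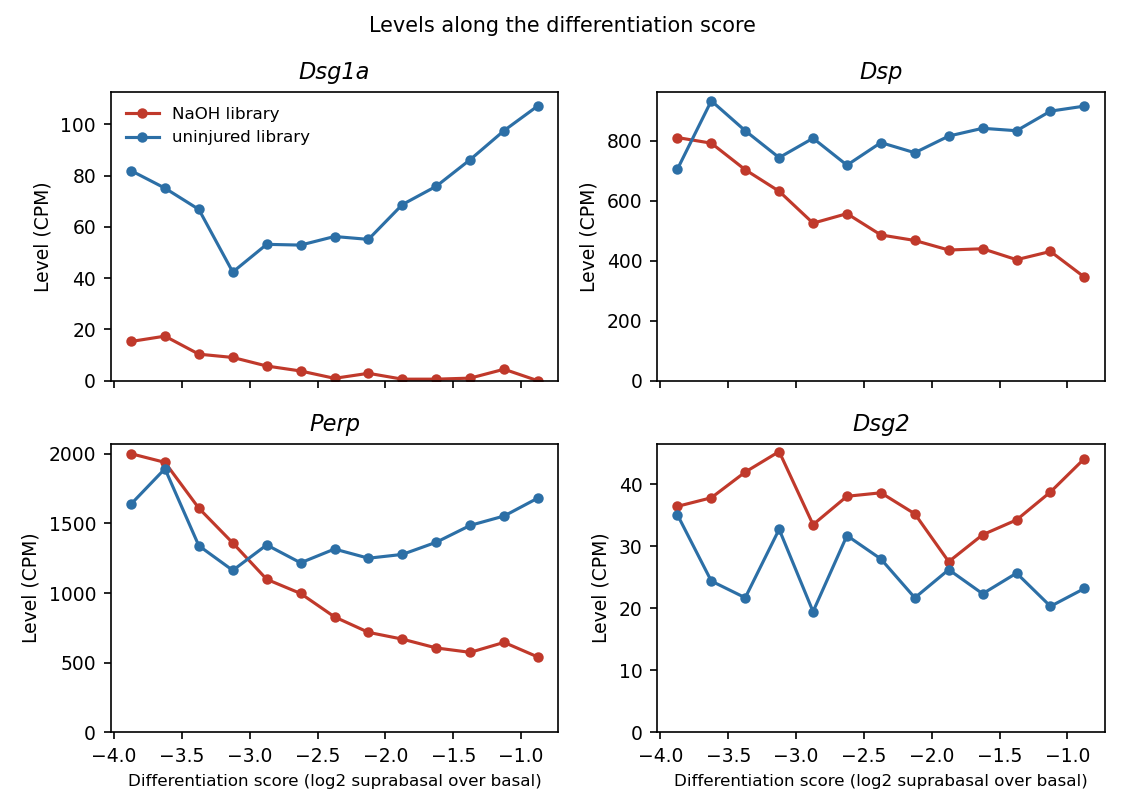
Level (CPM) of Dsg1a, Dsp, Perp and Dsg2 in cells of the NaOH library (red) and the uninjured library (blue), in bins of the differentiation score 0.25 wide from -4 (basal) to -0.75 (suprabasal). The lines of Dsp and Perp move apart toward the suprabasal side, the NaOH line of Dsg1a stays low in every bin, and Dsg2 is higher in the NaOH library along the score.

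Of 8 further desmosome and plakin genes, 5 were measured. Dsg1b, another copy of desmoglein 1, was at 2.89 CPM in NaOH and 10.3 CPM in uninjured epithelium (log2 ratio -1.83) and was the only one at least 2-fold lower. Of the 50-base words of the Dsg1a transcript (5686 bases, GENCODE M21), 31.6% are also in Dsg1b and 18.8% in Dsg1c, but 0% in its last 500 bases, so reads from further upstream could not always be placed. Pkp2, the plakophilin of heart and simple epithelia, was at 13.2 CPM in NaOH and 3.30 CPM in uninjured cells (1.997) and was the only one at least 2-fold higher. The plakins of cornified layers, Ppl and Evpl, were at 176 and 122 CPM in NaOH and at 306 and 218 CPM in uninjured cells. Pkp4 was at 71.2 CPM in NaOH and 68.2 CPM in uninjured cells. Dsc1, Dsg1c and Dsg4 had fewer than 20 UMIs over both libraries.

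Lists of other junction genes were counted by the same rule over the whole epithelium. Of 10 adherens junction genes, 0 were lower and 1 higher at least 2-fold, with a median log2 ratio of -0.16 and ratios below 1 for 7 of them. The higher one was Cdh3 (P-cadherin), at 29.97 CPM in NaOH and 4.94 CPM in uninjured cells. Nectin4, an adhesion receptor, was at 34.6 CPM in NaOH and 68.4 CPM in uninjured cells (-0.98). Of 9 hemidesmosome genes, which anchor basal cells to the basement membrane, 0 were lower and 1 higher, with a median of 0.14. This was Lamb3, a laminin-332 chain, at 91.0 CPM in NaOH and 31.1 CPM in uninjured cells. Lama3 was at 150 CPM in NaOH and 77.1 CPM in uninjured cells, and Col17a1 at 349 CPM in NaOH and 643 CPM in uninjured cells.

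Of 13 keratins, the filaments that desmosomes anchor, 9 were higher and 1 lower, with a median of 1.70. Krt12, the keratin of differentiated cornea, was at 27.0 CPM in NaOH and 19601 CPM in uninjured cells. Krt17, a keratin of stressed and wounded epithelia, was at 3416 CPM in NaOH and 130 CPM in uninjured cells. Krt19 was at 730 CPM in NaOH and 50.6 CPM in uninjured cells, and Krt7 at 418 CPM in NaOH and 8.71 CPM in uninjured cells. Krt5, the basal type II keratin, was at 3276 CPM in NaOH and 6039 CPM in uninjured cells. Krt16 was at 494 CPM in NaOH and 911 CPM in uninjured cells, and Krt6a at 1909 CPM in NaOH and 1519 CPM in uninjured cells. Both are also keratins of wounded epithelia. Krt5, Krt14, Krt12 and Krt15 also served to name the cells.

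Of 12 regulators of epithelial adhesion genes, 0 were lower and 1 higher, with a median of -0.18. The higher one was Zeb1, a repressor of epithelial genes, with 22 UMIs in NaOH and 2 in uninjured cells, where the 2 was counted as 3. Grhl2 was at 19.9 CPM in NaOH and 33.2 CPM in uninjured cells, and Grhl1 at 18.2 CPM in NaOH and 26.0 CPM in uninjured cells. Klf5 was at 448 CPM in NaOH and 434 CPM in uninjured cells. Of 9 measured proteases and kinases that act on desmosomes, 1 was lower and 1 higher, with a median of -0.06. Prkca, a kinase that loosens desmosomes in wounded cell sheets, was at 44.8 CPM in NaOH and 13.02 CPM in uninjured cells. The lower one was Klk7, a protease that cleaves desmosomes in skin, with 6 UMIs in NaOH and 93 in uninjured cells. Adam10, which sheds Dsg2, was at 50.6 CPM in NaOH and 28.7 CPM in uninjured cells.

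Over the 15 columns of state and library, the genes whose levels ran most like those of 4 desmosome genes were ranked by Pearson correlation of log2(CPM + 1) among 3681 genes. For Dsg1a they were Svip, Fermt3 and Ptgr1 (r = 0.98, 0.98 and 0.97). For Dsp they were Krt5, Pnpla8 and Atp6v1a (0.96, 0.96 and 0.95). For Jup they were Esrp2, Adam15 and Perp, and for Perp they were S100a16, Adam15 and Jup, all between 0.98 and 0.99. The columns share 2 libraries, and states of 1 library share free RNA and depth, so these are descriptions.

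Shallow epithelial cells in 2 groups stayed unnamed and outside the levels above. The larger group, of 636 uninjured cells and 2 NaOH cells with a median of 1280.5 UMIs, was led by A830036E02Rik, Malat1 and AY036118. Its Dsg3 level was 1266 CPM, against 247 CPM in the uninjured epithelial-like class (5.13-fold higher, interval 4.85 to 5.43). Dsc2 was 3.11-fold, Dsc3 2.64-fold and Dsg1a 2.35-fold higher there than in the class, so 4 of the 10 genes were at least 2-fold higher, where 17.8% of all genes were. The smaller group, of 65 NaOH and 275 uninjured cells with a median of 997 UMIs, was led by AY036118, Akr1b7 and Clic3. Of the 9 desmosome genes measured in it, 3 were at least 2-fold lower in NaOH cells (7.54% of all genes) and 0 higher (6.74%). Dsg1a had 0 UMIs in NaOH cells, with an upper limit of 24.3 CPM, against 119 CPM in uninjured cells. Dsc3 was at 72.4 CPM in NaOH cells, from 11 UMIs, and 165 CPM in uninjured cells. Perp was at 1382 CPM in NaOH and 2796 CPM in uninjured cells (2.02-fold lower in NaOH, 1.75 to 2.36). The part of shallow depth in these levels was not tested.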

How the data were processed

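The deposited matrices hold raw UMI counts. Per the file headers they come from Cell Ranger 7.0.1, and the submitters' processing notes name GRCm38. No source used here gives the chemistry or the annotation release. The members and gene lists were chosen with earlier results of these data known.

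Cells needed 300 genes, 500 UMIs and no more than 20% mitochondrial UMIs, which left 9003 of 9399 barcodes (NaOH) and 7150 of 7490 (uninjured). Scrublet's automatic threshold marked only 3 NaOH and 32 uninjured cells. The highest scores of each library were removed in its place, at 0.8% per 1000 barcodes, which took out 657 NaOH and 375 uninjured cells. Clusters came from scanpy 1.11.5 (2000 variable genes, 30 components, 20 neighbours, Leiden resolution 1, and 0.8 within the epithelium) without batch correction. A name needed 3 detected markers from the list for that cell type. Shallow clusters and clusters led by markers of another class stayed unnamed. Named states needed 25 cells of a library.

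Raw counts were summed per library and class or state. Levels carry exact Poisson intervals, ratios conditional exact binomial intervals and shares Clopper-Pearson intervals (scipy 1.17.1), and sums under 3 UMIs were set to 3 for ratios. Intervals treat UMIs or cells as independent. With 1 library per group no test was made. From each list, up to 3 genes per direction with the largest ratio and 20 CPM or more in 1 library were eligible to be named, and genes named for likeness needed 50 CPM in 1 state. 1 gene eligible by this rule is not reported here. Dsg1b, Pkp2, Zeb1 and Klk7 fell outside this rule and were named after their values were seen. The bands without conjunctival-like states, the bins of equal width, the limbal-like and cycling-like comparisons and the epithelium without the migrating-like state were added after seeing the data. The calling rule was tested on simulated data. Names of cell types were rebuilt here and may differ from the study's own.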

Additional observations from a re-analysis of the deposited data

Results flagged for a closer look

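The contrast of NaOH with uninjured cells had opposite signs at the ends of the differentiation score (band 1 most basal, band 4 most suprabasal) for 4 of the 10 desmosome genes, and this difference was not tested. How many of all genes had opposite signs was not counted. The log2 ratio was 0.36 in band 1 and -1.27 in band 4 for Dsg3, 0.64 and -1.05 in the same bands for Dsc2, 0.14 and -1.41 for Pkp1, and 0.04 and -1.80 for Perp. With the conjunctival-like states left out, band 1 gave 0.10 for Dsg3 (interval -0.003 to 0.196) and 0.20 for Dsc2 (0.078 to 0.327). It gave 0.09 for Pkp1 (-0.031 to 0.210) and -0.21 for Perp. Perp then had the same sign at both ends, and the band 1 intervals of Dsg3 and Pkp1 spanned both signs. Band 4 rests on 186 NaOH cells, and its median score was -1.11 in NaOH and -0.44 in uninjured cells. In the narrower score bin from -1.25 to -1 the log2 ratio was -0.76 for Dsg3, -0.35 for Dsc2, -0.69 for Pkp1 and -1.27 for Perp, so of the 4 only Perp was at least 2-fold lower there.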

How the results depend on the processing

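No paired analysis was possible because each group is 1 library. The calls in the whole epithelium were compared with 16 alternatives. Some of these used only part of it, such as limbal-like or cycling-like cells alone. Under all 16, 2 of the 10 genes were lower and 0 higher, and each gene kept its call. Clustering resolution 2 gave the same class, and a minimum of 100 UMIs changes only the all-gene counts, so these could move no call. Signs changed only for Dsg2 (-0.02), Dsg3 (0.09) and Dsc2 (0.03), in limbal-like cells alone, and for Dsc2 (0.01) without the migrating-like state. The median log2 ratio of the 10 was -0.69 with cells thinned to 2000 UMIs, -0.67 with each cell weighted alike, -0.70 with the free RNA level subtracted, -0.71 as a mean over the score's 4 bands and -0.44 in limbal-like cells alone. Dsg1a ranged from -6.09 to -4.30. Among all genes, 1241 of 11654 were at least 2-fold higher with thinned cells, 1327 of 12139 among genes with at least 100 UMIs, 568 of 12406 in limbal-like cells and 1199 of 11513 in cycling-like cells, where 1088 were lower, against 2067 higher and 1661 lower of 14677. At clustering resolution 1.5, 2 named states held 25 cells of each library. Dsg1a and Dsc3 were lower and Dsg2 higher in the conjunctival-like one. Only Dsg1a was lower in the limbal-like one (36 NaOH and 358 uninjured cells), making 3 lower calls. The share of all genes called in these 2 states is not given here. The causes of these differences were not tested. The conjunctival-like comparison rests on 51 uninjured cells and band 4 on 186 NaOH cells with unmatched scores.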

Other observations

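The 10 desmosome genes form 45 pairs, and over the 15 columns of state and library the Pearson correlation of their log2(CPM + 1) ranged from -0.62 to 0.98, with a median of 0.78. Within the 7 NaOH states all 45 were positive (median 0.83, lowest 0.20), and within the 8 uninjured states 34 were (median 0.68, lowest -0.91). Every negative pair in uninjured states included Dsg2 or Dsc3. In NaOH states most of the genes had their lowest level in the Tspan1/Asprv1 state of 69 cells, and correlations without it were not computed. States of 1 library share free RNA and depth, and these values are descriptions. Pairs drawn from all genes were not computed for comparison. Within the 2 desmocollins, Dsc2 made up 81.4% of UMIs in NaOH and 62.2% in uninjured cells of the Ppbp/Krt19 conjunctival-like state, and 66.4% in the uninjured differentiated-like state.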
